A study of Mus musculus with 4 samples.

Results

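The cardiac lineage transcription factors examined here are 10 genes, Gata4, Gata6, Tbx5, Tbx20, Hand1, Hand2, Nkx2-5, Mef2a, Mef2c and Mef2d, chosen by symbol from the 27998 genes in the files. They were followed across 6 lineages of the right ventricle (RV), namely cardiomyocytes (CMs), endocardium, vascular endothelium, fibroblasts, epicardium and mural cells, with macrophages as a reference. Nuclei were isolated from frozen RVs of WT C57/BL6J mice at P21, after sham-operation or right ventricular volume overload (RVVO) at P7, and were counted with the 10x 3′ v3 chemistry. RVVO was made with a fistula between the abdominal aorta and the inferior vena cava, and the sham group went through the same surgery without the puncture. Each group had 2 libraries, and lists of 4 values run in the order sham 1, sham 2, RVVO 1 and RVVO 2. The number of mice behind a library is not stated. For RVVO against sham, p-values measure the spread between these libraries. For comparisons of lineages, which were fitted with the library as a block, they measure the spread that remains after lineage and library are fitted. Either spread may be technical. The groups also differed in genes that mark sex, where Xist was counted at 1475, 1486, 0.825 and 0.643 UMIs per 1000000, and Uty at 0.102, 0.0517, 322 and 317. The median mitochondrial share of UMIs, a measure of RNA quality, was 1.47%, 1.38%, 0.654% and 0.535% over the deposited barcodes. In CMs it was 0.48%, 0.469%, 0.27% and 0.265%. An effect of RVVO therefore cannot be told apart from an effect of sex or of RNA quality.

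These factors bind DNA and switch on the gene programmes of heart cells. GATA factors are zinc finger proteins, TBX factors carry a T-box, HAND factors are basic helix-loop-helix proteins, NKX2-5 is a homeodomain protein, and MEF2 factors are MADS-box proteins. They work in combination during heart development, and several of them are used in more than a single lineage of the heart.

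The kept nuclei numbered 11424, 12813, 7676 and 11267, with a median depth of 2311, 2262, 4705 and 3378 UMIs over the deposited barcodes. Each nucleus was placed in a lineage by a marker panel that held none of the 10 factors. CMs had at least 1% of their UMIs from the CM panel. The other lineages were placed by raw UMIs of their panels and had to lie under 0.6% for the CM panel. This gave 12628 CMs, 1004 endocardial, 8741 vascular endothelial, 4204 fibroblast, 791 epicardial, 1782 mural and 1207 macrophage nuclei, while 12823 of 43180 kept nuclei were not placed. The CM panel summed to between 299 and 346 UMIs per 10000 in CMs and to between 13.5 and 23.1 in the other lineages, so CM transcripts were present in every lineage. The gap between these values was in part set by the limits on the CM panel. Epicardial nuclei carried 9.29 to 11.3 UMIs per 10000 of the endocardial panel and 15.9 to 30.8 of the fibroblast panel, and the part of this in their values was not tested. Of the cell barcodes, 276 occurred in more than 1 library. Hemoglobin genes were higher in RVVO 1 than in the other libraries, at 36.7 against 9.19 to 12.8 UMIs per 10000 in vascular endothelium.

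The genes lie apart in the genome (GRCm38). Gata4 is on the minus strand at chr14:63198922-63271692, Tbx5 on the plus strand at chr5:119832668-119885219 and Tbx20 on the minus strand at chr9:24718138-24774303. Hand1 is at chr11:57828705-57832818 and Nkx2-5 at chr17:26838664-26845009, both on the minus strand, while Hand2 is on the plus strand at chr8:57320983-57324633. Mef2a is on the minus strand at chr7:67231163-67372858, and Mef2c and Mef2d are on the plus strand at chr13:83504034-83667080 and chr3:88142372-88172086. The Mef2a gene overlaps Lysmd4 on the other strand, Gata6 overlaps 1010001N08Rik and Mef2d overlaps 1700113A16Rik in the same way. Hand2 also overlaps the antisense gene Hand2os1 on the other strand, for which the files have no row of their own. No source used here says whether reads were counted by strand, without which reads of such pairs cannot be told apart.

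The 250 bases before the annotated start are shown for 3 of the genes because they showed 3 different lineage patterns, as described below. Hand2 was shared by endocardium and CMs, Mef2c was low in CMs, and Tbx20 was highest in fibroblasts. The sequences are from RefSeq (GRCm38.p6), are written 5′ to 3′ on the strand of the gene, and have capitals where a searched motif matched. The windows are chr8:57320733-57320982 on the plus strand for Hand2, chr13:83523406-83523655 on the plus strand for Mef2c, at the second of 3 annotated starts, and chr9:24774304-24774553 on the minus strand for Tbx20.
Hand2: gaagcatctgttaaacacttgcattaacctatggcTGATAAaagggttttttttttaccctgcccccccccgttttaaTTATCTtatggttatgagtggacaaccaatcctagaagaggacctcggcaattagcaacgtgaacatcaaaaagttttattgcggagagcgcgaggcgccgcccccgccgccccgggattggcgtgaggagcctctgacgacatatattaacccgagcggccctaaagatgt
Mef2c: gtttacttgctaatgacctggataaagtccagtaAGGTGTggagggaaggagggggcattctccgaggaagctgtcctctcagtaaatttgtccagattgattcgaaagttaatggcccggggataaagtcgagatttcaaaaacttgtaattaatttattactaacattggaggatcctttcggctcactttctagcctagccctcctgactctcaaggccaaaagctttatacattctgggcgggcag
Tbx20: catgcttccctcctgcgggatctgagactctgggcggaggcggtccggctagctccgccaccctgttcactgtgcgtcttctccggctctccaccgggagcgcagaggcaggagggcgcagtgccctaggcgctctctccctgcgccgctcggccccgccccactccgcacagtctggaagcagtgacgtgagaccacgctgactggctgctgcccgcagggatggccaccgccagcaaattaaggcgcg
Both strands were searched for the GATA motif (AGATAA, and likewise AGATAG, and likewise TGATAA, and likewise TGATAG), the T-box motif (AGGTGT), the NKX2-5 motif (CACTTAA, and likewise CACTTGA) and the MEF2 motif. No match overlapped another. The Hand2 window held 2 GATA matches, this Mef2c window held 1 T-box match, and the Tbx20 window held 0 of the 4 motifs. The windows of Nkx2-5, Mef2a, Mef2d and the other 2 starts of Mef2c also held 0. The Mef2c window shown was thus the only Mef2c window with a match, and it does not lie at the outer start of the gene. Over 32851 promoters of the same length, 26.5% held the GATA motif, 11.8% the T-box motif, 4.67% the NKX2-5 motif and 2.92% the MEF2 motif. A match is a description of these letters and not a bound site.

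Levels are given as counts per 1000000 (CPM), that is UMIs summed per library and lineage, divided by the total and by the TMM factor of edgeR. The TMM factors were 0.697 to 0.756 in CMs and 0.979 to 1.16 in the other lineages, and leaving them out moved the median of all genes by 0.50 to 0.63 on the log2 scale, towards lower levels in CMs. Where a comparison of a factor with CMs changed direction without these TMM factors, this is said beside it. Levels of different genes were not compared, because the counts are not per length and the files do not say which reads were counted. In summed counts, a change in the nuclei that use a gene and a change in the level per nucleus cannot be told apart.

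**Figure D1:**
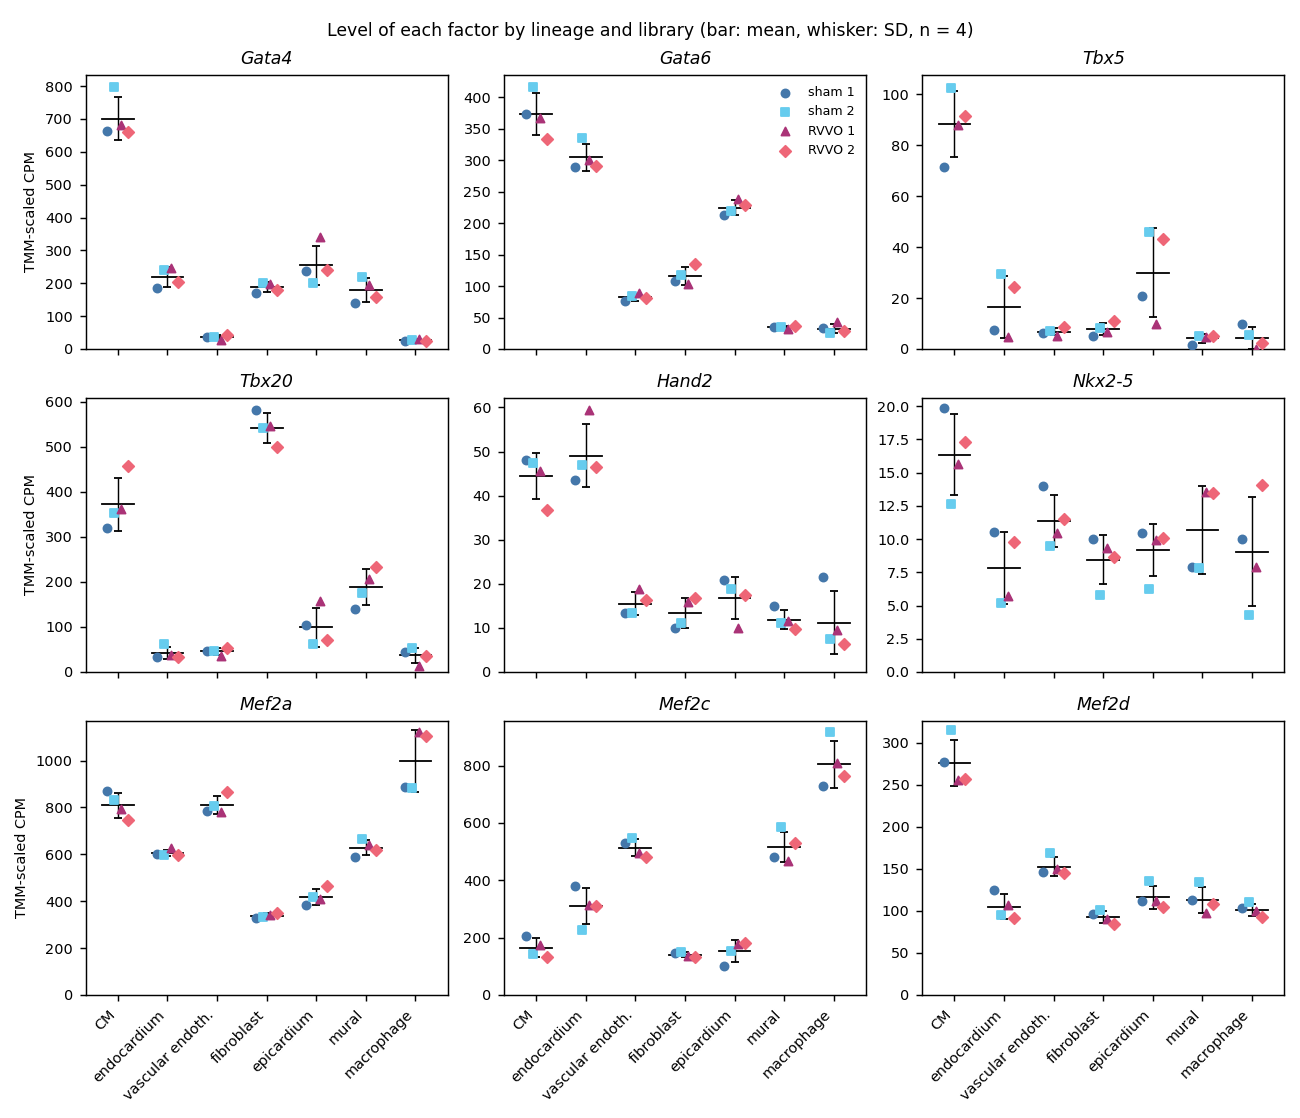
Level of 9 factors (y axis, TMM-scaled CPM, each panel with its own scale from 0) in 6 lineages and macrophages (x axis), with 1 point for each of the 4 libraries, the mean as a bar and the SD as a whisker. Gata4, Gata6 (without TMM factors in endocardium), Tbx5 and Mef2d had their highest mean level in CMs, Tbx20 in fibroblasts, and Mef2a and Mef2c in macrophages, while Hand1 had 0 UMIs and is not drawn.

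Both GATA factors were found in CMs and in several other lineages. Gata4, a regulator of CM genes that is also used by heart mesenchyme, was highest in CMs, at 663, 797, 683 and 661 CPM. It was next highest in epicardium (238, 202, 341 and 241 CPM), endocardium (185, 240, 247 and 204 CPM), fibroblasts (171, 202, 199 and 180 CPM) and mural cells (139, 220, 195 and 160 CPM). The level in CMs lay above every library of these lineages, and CMs exceeded epicardium by 1.49 ± 0.13 on the log2 scale (SE, n = 4 libraries, edgeR quasi-likelihood test, adjusted p = 5.2e-12). The 4 lineages after CMs overlapped in the order of their levels, and no neighbouring pair passed the test (adjusted p = 0.33, 0.196 and 0.692). Pairs farther apart in this order are not given for Gata4, so these lineages need not be level. Vascular endothelium stood apart from them, at 35.3 ± 6.28 CPM (SD, n = 4), and mural cells exceeded it by 2.32 ± 0.13 on the log2 scale (adjusted p = 9.64e-16). Vascular endothelium did not pass the test against macrophages (26.9 ± 2.26 CPM, adjusted p = 0.0769). That comparison passed without the filter on low counts, without doublet removal or without RVVO 1 (adjusted p = 0.0309, 0.0436 and 0.00967).

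Gata6, the close relative of Gata4, divided the lineages differently. CMs had 374, 417, 368 and 334 CPM and endocardium had 290, 335, 301 and 292 CPM, so the ranges of both lineages overlapped. Within each library CMs were higher at this scaling. The difference of 0.30 ± 0.09 on the log2 scale, higher in CMs, passed the test (adjusted p = 0.00647). Without TMM factors the direction turned, with endocardium 0.22 higher (adjusted p = 0.0365), and after thinning to 1000 UMIs the test was missed (adjusted p = 0.09), so the order of these 2 lineages depends on the scaling. Epicardium, which did not pass against CMs without TMM factors (adjusted p = 0.101), followed at 225 ± 11.4 CPM, fibroblasts at 116 ± 14.2 and vascular endothelium at 82.5 ± 5.43 (SD, n = 4). Each of these steps passed the test and had no overlap between the libraries (adjusted p = 0.00141 for endocardium over epicardium, 5.92e-09 for epicardium over fibroblasts and 4e-05 for fibroblasts over vascular endothelium). Mural cells, at 34.4 ± 2.46 CPM, did not pass the test against macrophages, at 32.5 ± 7.55 CPM (log2 difference 0.13 ± 0.17, adjusted p = 0.612). Set against the CM level, mural cells had 25.3% of Gata4 and 9.29% of Gata6, endocardium had 31.3% and 81.8%, and vascular endothelium had 5.06% and 22.2%.

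The T-box factors differed from each other in their leading lineage. Tbx20, which acts in CMs and valve cells, was highest in fibroblasts, at 581, 543, 546 and 499 CPM, against 321, 353, 361 and 457 CPM in CMs. No fibroblast library lay within the range of CMs, and the difference was 0.55 ± 0.16 on the log2 scale (adjusted p = 0.00362). Mural cells had 139, 176, 206 and 233 CPM and epicardium 105, 62.7, 157 and 71.4 CPM, so these ranges overlapped. Within each library mural cells were higher, and the test was passed (1.07 ± 0.23 on the log2 scale, adjusted p = 3e-04). Vascular endothelium (45.7 ± 7.62 CPM), endocardium (41.9 ± 13.9 CPM) and macrophages (36.9 ± 16.9 CPM) were lowest and did not pass the test against each other. The endocardial value depended on how nuclei were placed, because with lineages taken from clusters endocardium exceeded vascular endothelium by 0.76 (adjusted p = 0.00351) and macrophages by 1.25 (adjusted p = 0.000273) on the log2 scale.

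Tbx5, which acts in the atria, the conduction system and the ventricle, was highest in CMs, at 71.5, 103, 88.1 and 91.6 CPM. Epicardium had 21, 46, 9.95 and 43 CPM and endocardium had 7.5, 29.5, 4.58 and 24.4 CPM. In both lineages sham 2 and RVVO 2 were high and the other 2 libraries low. The remaining lineages had between 4.14 and 7.76 CPM on average, and none of them passed the test against macrophages (4.42 ± 4.3 CPM), although fibroblasts passed without sham 1 (1.69, adjusted p = 0.0172) or without the filter on low counts (1.09, adjusted p = 0.0154). Endocardium passed against vascular endothelium (1.24 ± 0.34 on the log2 scale, adjusted p = 0.00452), but not without sham 2 (0.93, adjusted p = 0.11) or without RVVO 2 (0.99, adjusted p = 0.118). Against macrophages it passed at 2.06 ± 0.51 (adjusted p = 0.00134), but not without RVVO 2 (1.35, adjusted p = 0.118).

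The same 2 libraries held most of a small CM cluster with high Myl4, the gene of the atrial myosin light chain. The cluster was picked out after the values were seen, so its values are given without a test. It held 299 CM nuclei, 1, 123, 18 and 157 in the 4 libraries, with 5.45 Myl4 UMIs per 10000 against 0.112 to 0.477 in the other CM clusters. Among the factors, Tbx5 differed most between this cluster and the other CMs, at 585, 511 and 574 UMIs per 1000000 in sham 2, RVVO 1 and RVVO 2 against 50.3, 53, 57.7 and 52.6 in the other CMs of the 4 libraries. Gata6, Mef2c and Nkx2-5 also lay above the other CMs in the 3 libraries, at 368, 462 and 303 against 249 to 289 UMIs per 1000000 for Gata6, at 229, 294 and 259 against 95.3 to 146 UMIs per 1000000 for Mef2c and at 19.3, 21 and 21.8 against 8.45 to 14 for Nkx2-5, the last from 11, 3 and 15 UMIs. Tbx20, at 480, 287 and 451 UMIs per 1000000, lay above the other CMs of the same libraries (238, 249 and 339), though the ranges over libraries overlapped. Gata4, at 481, 637 and 537 against 468 to 560 UMIs per 1000000, overlapped with the other CMs. Mef2a (541, 455 and 555) and Mef2d (175, 175 and 185) lay below the other CMs of the same libraries. These had 583, 549.5 and 559 UMIs per 1000000 for Mef2a and 222, 177 and 193 for Mef2d. Hand2 went both ways, at 40.3, 77 and 20.4 against 33, 31.2 and 27.7, from only 23, 11 and 14 UMIs in the cluster. The part of these nuclei in the endocardial and epicardial values of Tbx5 was not tested.

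**Figure D2:**
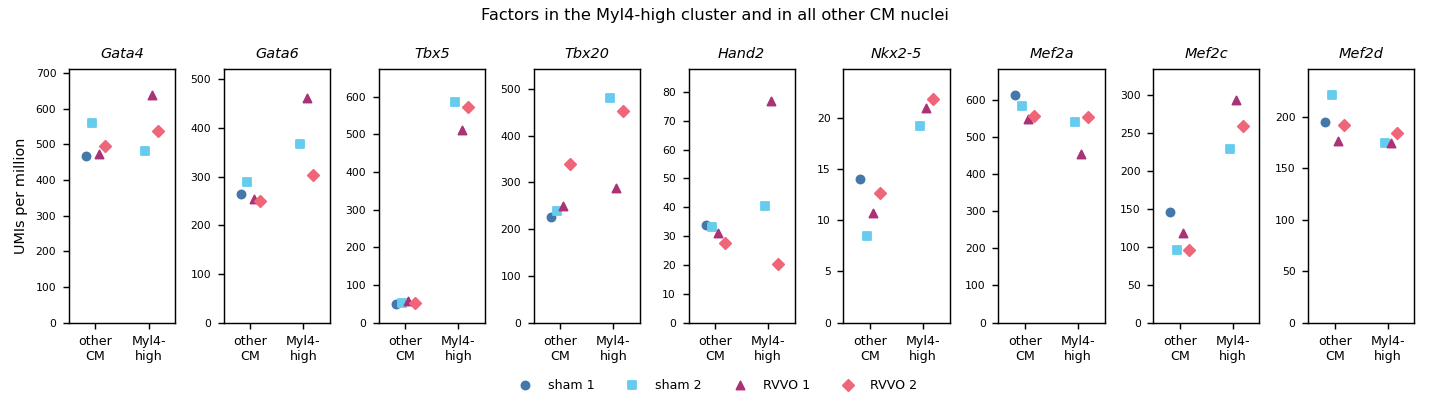
UMIs per 1000000 of 9 factors (y axes, each from 0, no TMM scaling) in the Myl4-high CM cluster and in all other CM nuclei, with 1 point per library. The single nucleus of sham 1 in the cluster is not drawn, and Tbx5 lies between 511 and 585 in the cluster and between 50.3 and 57.7 outside it.

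The HAND factors differed in whether they were detected at all. Hand1, which is used in the embryonic left ventricle, had 0 UMIs in 43180 nuclei, which allows a share of up to 0.00695% of nuclei with a UMI and a level of up to 0.0162 UMIs per 1000000, for counting error only. Hand2, a regulator of the embryonic right ventricle, was counted in endocardium at 43.5, 46.9, 59.5 and 46.4 CPM and in CMs at 48, 47.5, 45.6 and 36.7 CPM. These lineages overlapped and did not pass the test (log2 difference 0.15 ± 0.17, higher in endocardium, adjusted p = 0.455). Without TMM factors the difference grew to 0.67 and passed (adjusted p = 0.0013). CMs exceeded epicardium, the next lineage, by 1.34 ± 0.23 on the log2 scale with no overlap (adjusted p = 8.7e-06). They exceeded macrophages by 1.96 to 2.52 on the log2 scale when each library was left out in turn. Epicardium, vascular endothelium, fibroblasts and mural cells lay between 11.9 and 16.8 CPM on average and did not pass the test against macrophages, at 11.2 ± 7.05 CPM. The macrophage value was uneven, with 21.6 CPM in sham 1 and 6.25 to 9.5 in the other libraries, and without sham 1 vascular endothelium, fibroblasts and epicardium passed (adjusted p = 0.00417, 0.00994 and 0.0105).

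Nkx2-5, the homeodomain factor that marks CMs in development, was sparse. It had 1857 UMIs in all kept nuclei. CMs had 19.9, 12.6, 15.6 and 17.3 CPM and vascular endothelium had 14, 9.46, 10.5 and 11.5 CPM, and their ranges overlapped. Within each library CMs were higher at this scaling. CMs passed the test against all 6 other lineages, by 0.50 ± 0.13 on the log2 scale against vascular endothelium (adjusted p = 0.0011) and by 0.78 ± 0.22 against macrophages (adjusted p = 0.00246). Without TMM factors the comparisons with endocardium, vascular endothelium, epicardium, mural cells and macrophages were lost (adjusted p = 0.0686, 0.976, 0.361, 0.641 and 0.597), without sham 1 that with mural cells was lost (adjusted p = 0.121), and without TMM factors CMs had 11.7 ± 2.31 UMIs per 1000000 against 11.4 ± 1.83 in vascular endothelium. The other lineages had 46.8% to 69.8% of the CM level, and macrophages, which are not known to use this gene, had 54%.

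Of the MEF2 factors, only Mef2d was highest in CMs. MEF2 proteins are used in muscle, endothelium and blood cells, so macrophages are not a reference for free RNA here. Mef2a was highest in macrophages, at 886, 883, 1121 and 1105 CPM, followed by CMs at 869, 832, 793 and 745 CPM and vascular endothelium at 786, 807, 780 and 864 CPM. CMs and vascular endothelium differed by 0.00 ± 0.08 on the log2 scale (adjusted p = 0.974). Without TMM factors vascular endothelium was 0.50 higher (adjusted p = 5.2e-07), at 765 to 912 against 549 to 613 UMIs per 1000000, with no overlap. Macrophages exceeded CMs by 0.30 ± 0.08 (adjusted p = 0.00173) and vascular endothelium by 0.30 ± 0.08 (adjusted p = 0.00248). The first was lost without RVVO 2 (adjusted p = 0.0751) or without the filter on low counts (adjusted p = 0.154), and the second without RVVO 1 (adjusted p = 0.0701). In the same way, mural cells (0.18, adjusted p = 0.04) and endocardium (0.10, adjusted p = 0.272) turned from below to above CMs without TMM factors. Fibroblasts had the lowest level, at 338 ± 9.82 CPM.

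Mef2c was higher in several lineages than in CMs. It was highest in macrophages, at 729, 917, 809 and 765 CPM, and next highest in mural cells (483, 585, 466 and 532 CPM) and vascular endothelium (530, 547, 496 and 482 CPM), which overlapped. CMs had 207, 145, 173 and 134 CPM, below every library of these lineages. Vascular endothelium exceeded CMs by 1.65 ± 0.13 on the log2 scale (adjusted p = 2.79e-13), and endocardium exceeded them by 0.92 ± 0.13 (adjusted p = 3.89e-07). Fibroblasts (140 ± 8.17 CPM) and epicardium (154 ± 37 CPM) did not pass against CMs. Fibroblasts passed, below CMs, without sham 2 (adjusted p = 0.0369) or without the filter on low counts (adjusted p = 0.00985). Without TMM factors both turned from below to above CMs, by 0.41 and 0.51 (adjusted p = 0.00463 and 0.00298).

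Mef2d was highest in CMs, at 277, 315, 256 and 256 CPM, and next in vascular endothelium, at 146, 169, 149 and 145 CPM. The difference was 0.86 ± 0.08 on the log2 scale with no overlap between the libraries (adjusted p = 1.05e-11). The other 5 lineages lay between 92.7 and 116 CPM on average, and no neighbouring pair in their order passed the test. Pairs farther apart are not given for Mef2d, so these lineages need not be level.

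Counted over the factors, CMs were distinct from every other lineage, but so were most genes. Of the 9 factors that passed the filter, 8 were called between CMs and endocardium, 7 higher in CMs and 1 lower, where 64.7% of all 12190 genes were called. Against vascular endothelium 7 were higher and 1 lower (78.4% of all genes), against fibroblasts 7 and 1 (73.6%), against epicardium 8 and 0 (65.1%), against mural cells 8 and 1 (67.7%), and against macrophages 7 and 2 (68.6%). The median log2 difference of the 9 factors ranged from 1.05 against endocardium to 2.13 against macrophages, and that of all genes from -0.05 to -0.01. Without TMM factors the split changed, to 4 higher and 3 lower against endocardium, 6 and 2 against vascular endothelium, 7 and 2 against fibroblasts, 6 and 1 against epicardium, 6 and 2 against mural cells and 6 and 2 against macrophages. Of all genes called against fibroblasts, 48.5% were higher in CMs with TMM factors and 22.6% without them. Against macrophages the count of lower factors was 1 without RVVO 2. Endocardium against vascular endothelium gave 4 higher (Gata4, Gata6, Tbx5 and Hand2) and 3 lower (Mef2a, Mef2c and Mef2d), where 34.3% of all genes were called. After thinning to 1000 UMIs, Mef2d missed this test (-0.25 on the log2 scale, adjusted p = 0.229). Between the other lineages, endocardium had 5 higher and 1 lower than fibroblasts (35.4% of all genes called), 4 and 2 than epicardium (33.7%), and 3 and 2 than mural cells (35.5%). Vascular endothelium had 4 higher and 3 lower than fibroblasts (59.2%), 3 and 4 than epicardium (50%), and 3 and 2 than mural cells (42.5%). Fibroblasts had 1 higher and 5 lower than epicardium (34%) and 2 and 3 than mural cells (36.3%), and epicardium had 3 and 3 against mural cells (40.7%). The count of lower factors between endocardium and epicardium was 1 without sham 2 or without RVVO 2, and that between fibroblasts and epicardium was 3 without RVVO 2.

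The factors called higher than in macrophages are listed here for each lineage outside CMs. Endocardium had Gata4, Gata6, Tbx5 and Hand2 (41.9% of all genes called), and epicardium had Gata4, Gata6, Tbx5 and Tbx20 (47.2%). Fibroblasts had Gata4, Gata6 and Tbx20 (50.9%), mural cells had Gata4 and Tbx20 (46%), and vascular endothelium had Gata6 and Mef2d (49.6%). Mef2a and Mef2c were lower than in macrophages in all 5 lineages. Without sham 1 the count of higher factors in fibroblasts was 5, and without RVVO 1 the count of lower factors in vascular endothelium was 1. After thinning to 1000 UMIs, Tbx20 in epicardium missed the test (adjusted p = 0.142). Of 9 factors tested, 2 were higher and 2 lower in vascular endothelium and in mural cells, and 3 and 2 in fibroblasts, near the share of all genes called. These sets describe which factors passed and were not compared with each other by a test.

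The shares of nuclei with at least 1 UMI were taken after each nucleus was thinned to 1000 UMIs, because shares rise with depth. Nuclei with fewer UMIs were left out, and most of these were from sham. They numbered 202, 354, 3 and 0 in CMs and 108, 262, 11 and 0 in vascular endothelium. Gata4 was found in 33.8% to 39% of CM nuclei, in 16% to 29.8% of epicardial, 15.9% to 19.4% of endocardial, 18% to 19.7% of fibroblast and 11.7% to 20.7% of mural nuclei. In vascular endothelium its share was 2.56% to 3.45%, within the 2.09% to 4.57% of macrophages. Tbx20 was found in 34.4% to 36.9% of fibroblast nuclei against 18.1% to 26.6% of CM nuclei and 1.14% to 5.02% of macrophages. Gata6 was found in 24.3% to 26.1% of endocardial nuclei, 21.4% to 24.7% of CM nuclei and 2.22% to 3.35% of macrophages. Nkx2-5 was found in 0.97% to 1.54% of CM nuclei and in 0.318% to 1.37% of macrophages, so the ranges overlapped. Hand2 in CMs (2.74% to 3.57%) also overlapped with macrophages (0.683% to 3.77%), whereas Hand2 in endocardium (4.52% to 6.59%) did not. The overlap in CMs came from the macrophages of sham 1. In sham 2, RVVO 1 and RVVO 2 the Hand2 shares were 3.57%, 3.12% and 2.74% in CMs and 1.59%, 1.71% and 0.683% in macrophages. The part of free RNA in these shares was not tested. Over the 6 lineages and the factors other than the MEF2 genes, Hand1 included, 15 shares had their lowest library above the highest macrophage library. The same count over all genes was not taken, so this number cannot be read as a trait of these factors. Per nucleus, 47.2% to 53.8% of CM nuclei had a UMI of 2 or more of the factors, against 41.8% to 44.5% of endocardial, 31.3% to 35% of vascular endothelial, 33% to 36.9% of fibroblast, 29.3% to 34.4% of epicardial and 32.1% to 45.7% of mural nuclei. Macrophages, with their high Mef2a and Mef2c, had 36.6% to 45.1%.

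**Figure D3:**
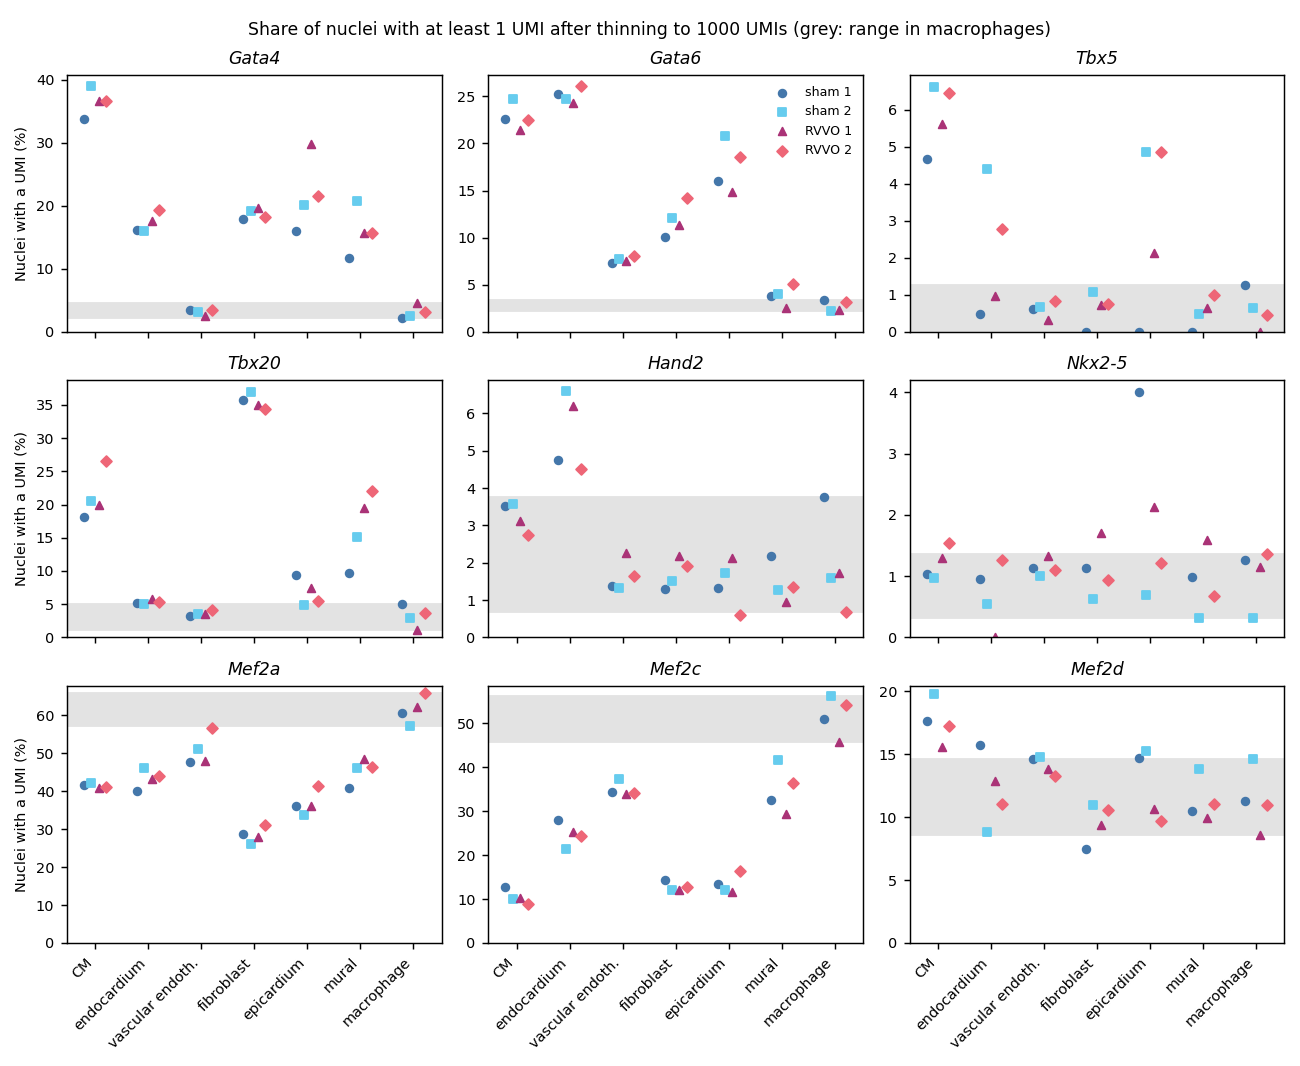
Share of nuclei with at least 1 UMI of a factor (y axis, percent, each panel with its own scale from 0) in 6 lineages and macrophages (x axis) after thinning each nucleus to 1000 UMIs, with 1 point per library and the range of macrophages in grey. Nuclei under 1000 UMIs are left out. For Gata4 and Gata6 the CM and endocardial points lie above the grey band, whereas for Nkx2-5 the points of CMs, at 0.97% to 1.54%, reach into it.

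Free RNA of CMs was gauged with 9 CM genes that were not used as markers, such as Ttn and Actn2, which encode sarcomere proteins. Nuclei outside CMs had been held under 0.6% of UMIs for the CM panel, which limits the free RNA left in them. Outside CMs these genes had a median of 14.5% to 23.2% of their CM level, with a range from 4.07% for Ldb3 in fibroblasts to 112% for Myl2 in vascular endothelium. By means of the 4 libraries, Gata4 in vascular endothelium (5.06%) and macrophages (3.86%) lay below all 9. Its libraries overlapped with those of Ldb3, at 3.91% to 6.31% against 5.16% to 6.09% in vascular endothelium. In macrophages they were 3.36% to 4.4% against 3.23% to 5.72%. In endocardium the means of the yardstick genes ranged from 4.34% to 77%, and there the means of Gata6 (81.8%), Hand2 (112%) and Mef2c (189%) lay above all 9. The libraries of Gata6 (77.4% to 87.2%) overlapped with those of Myl2 (59.3% to 88.2%). In fibroblasts the means of Tbx20 (149%) and Mef2c (87.6%) lay above all 9 genes, but the libraries of Mef2c (70.1% to 103%) overlapped with those of Myl2 (56.4% to 82.8%). Nkx2-5 lay within the range in every lineage. The part of free RNA in the values that lay within the range was not tested.

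**Figure D4:**
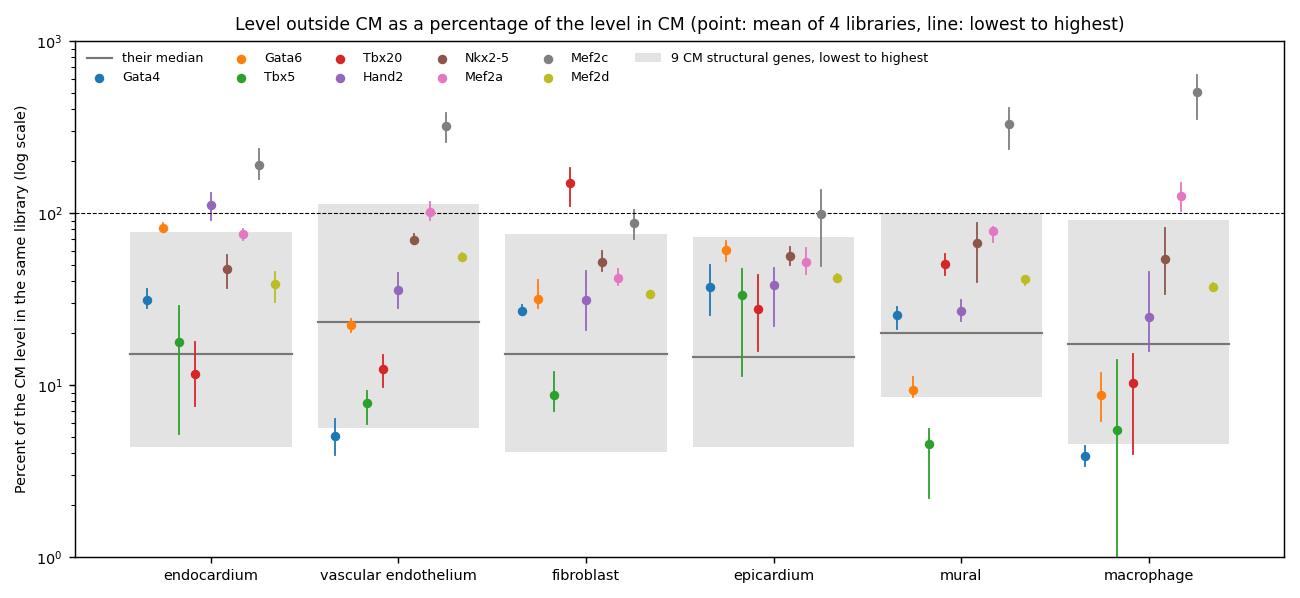
Level outside CMs as a percentage of the CM level in the same library (y axis, log scale), with points for the mean of 4 libraries and lines from the lowest to the highest library, cut at 1%. Grey bars span the means of 9 CM structural genes from lowest to highest, without their spread over libraries, and grey lines mark their median. Tbx20 in fibroblasts (149%) and Mef2c in endocardium (189%) and vascular endothelium (321%) lie above the bars.

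RVVO and sham were compared within each lineage. No factor passed the test in any lineage. In CMs 0 of 9 tested factors were called by edgeR, where 0.0488% of all genes were called (7 of 14331). The counts were 0 of 8 in endocardium (0.0818% of all genes), 0 of 9 in vascular endothelium (0.149%), 0 of 9 in fibroblasts (0.0557%), 0 of 8 in epicardium (0.118%) and 0 of 8 in mural cells (0.0713%). DESeq2 also called 0 in each lineage. At an unadjusted p under 0.05 there were 0 in CMs, endocardium, vascular endothelium and epicardium, 1 in fibroblasts and 1 in mural cells. Over all genes this held for 859 of 14331 in CMs, 419 of 8556 in endocardium and 764 of 12763 in vascular endothelium. It held for 465 of 12561 in fibroblasts, 249 of 8477 in epicardium and 397 of 9815 in mural cells. On CM counts simulated with the same dispersion for every gene, the same test found 66.3% of 98 genes with a log2 change of 1. It found 99% of 102 genes with a change of 2. In the data 7 genes were called in CMs and the error differed between factors, so these shares may not hold for the factors. Smaller changes could be missed.

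In CMs the largest difference was that of Tbx20, at 321 and 353 CPM in sham and 361 and 457 in RVVO. The groups did not overlap, the log2 difference was 0.27 ± 0.16 (SE, adjusted p = 0.868), and without RVVO 2 it was 0.07. Mef2d had 277 and 315 CPM in sham and 256 and 256 in RVVO, a log2 difference of -0.22 ± 0.12 (adjusted p = 0.868). Hand2 (-0.23 ± 0.15), Gata6 (-0.18 ± 0.12), Mef2a (-0.16 ± 0.12) and Gata4 (-0.13 ± 0.13) were also below 0, and for each of these the adjusted p was 0.889 or more. Mef2c (-0.21 ± 0.22), Tbx5 (0.04 ± 0.19) and Nkx2-5 (0.01 ± 0.26) changed sign when single libraries were left out. CM nuclei were spread unevenly over clusters, and a large CM cluster held 89, 388, 1966 and 330 nuclei of the 4 libraries. Median depth in CMs was 4089.5, 4191.5, 7550 and 4396 UMIs. The part of this in the differences was not tested.

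Outside CMs, the lowest unadjusted p belonged to Hand2 in fibroblasts and Tbx20 in mural cells. Fibroblast Hand2 had 10 and 11.1 CPM in sham and 15.9 and 16.9 in RVVO (log2 difference 0.62 ± 0.24, adjusted p = 1). Mural Tbx20 had 139 and 176 CPM in sham and 206 and 233 in RVVO (0.47 ± 0.20, adjusted p = 1). In both the groups did not overlap, but neither passed the adjustment over all genes. For shares of nuclei with a UMI, an exact permutation test of 2 libraries against 2 has 6 arrangements, of which 2 always reach the most extreme difference, so no share could pass. The RVVO effect of each lineage was also set against that of CMs, and 0 factors were called, where 0.0082% of all genes were called for endocardium, 0% for vascular endothelium, 0.0574% for fibroblasts, 0.041% for epicardium and 0% for mural cells. The lowest unadjusted p values of that test were 0.00618 for Hand2 in fibroblasts, with a difference of effects of 0.85 ± 0.28 on the log2 scale, and 0.0225 for Hand2 in vascular endothelium, with 0.62 ± 0.25, and both had an adjusted p of 1.

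**Figure D5:**
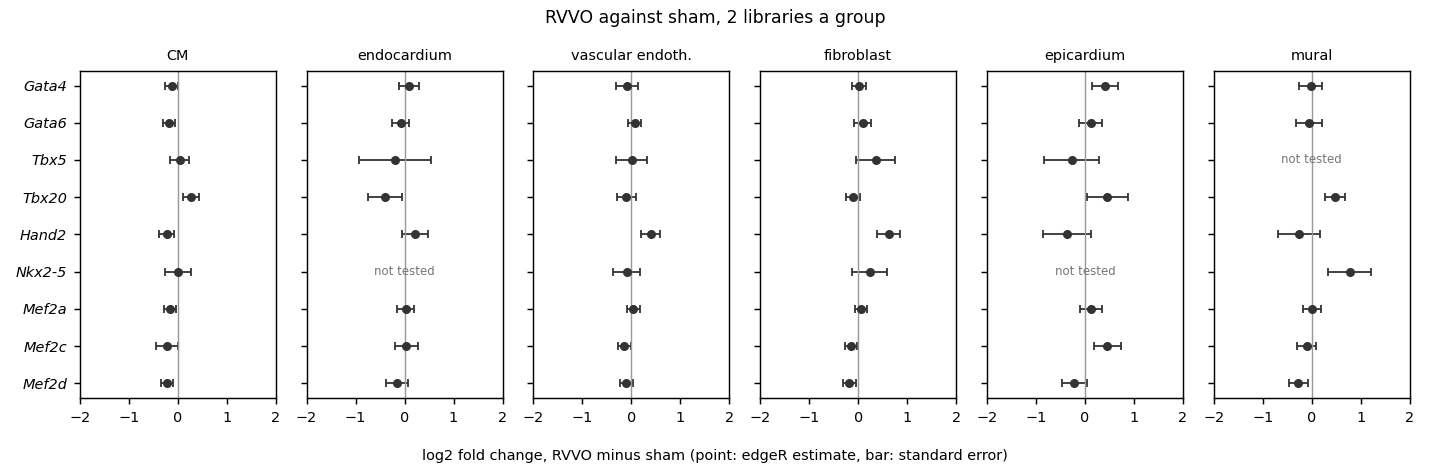
Log2 fold change of RVVO over sham (x axis, edgeR estimate with a standard error derived from its F statistic as a bar) for 9 factors (y axis) in 6 lineages, from 2 libraries per group. No factor passed the test, and the farthest from 0 relative to their errors are Hand2 in fibroblasts (0.62 ± 0.24) and Tbx20 in mural cells (0.47 ± 0.20).

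Genes that work with these factors were taken as fixed lists. Of 18 partner genes, 16 were tested between CMs and fibroblasts, with 10 higher in CMs and 4 lower (9 and 6 without TMM factors), where 73.6% of all genes were called. Myocd, a coactivator of SRF, was at 2083 CPM in CMs and at 188 CPM or less elsewhere, and Prdm16 was at 477 CPM in CMs and at 73.9 CPM or less elsewhere. Zfpm2, the FOG cofactor of GATA4, had 2203 CPM in CMs, 1648 in fibroblasts (above CMs without TMM factors, CMs minus fibroblasts -0.21 on the log2 scale, adjusted p = 0.166), 1464 in mural cells, 367 in vascular endothelium and 148 in macrophages. Gata5, the third cardiac GATA gene, was counted in epicardium at 37.4 CPM and at 1.4 CPM or less elsewhere. Tbx18 was highest in epicardium (135 CPM), Tbx2 and Hey2 in mural cells (140 and 52.7 CPM), Tbx3 in vascular endothelium (164 CPM) and Nfatc1 in endocardium (115 CPM). Between RVVO and sham 0 of the partners were called in any lineage.

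The MEF2 regulator list has 4 class IIa histone deacetylases, which repress MEF2, and the kinases Camk2d and Prkd1, which act on them. Between CMs and vascular endothelium all 6 were called, 3 higher in CMs and 3 lower (2 and 3 without TMM factors), where 78.4% of all genes were called. Hdac4 and Camk2d were highest in CMs (428 and 1599 CPM), Hdac7 was highest in endocardium and vascular endothelium (264 and 255 CPM), and Hdac9 was highest in macrophages (431 CPM), the lineage with the highest Mef2a and Mef2c. Of 13 known target genes, 12 were tested, and 10 were higher in CMs than in fibroblasts and 0 lower, where 73.6% of all genes were called. Without TMM factors 7 were higher and 3 lower, and Actc1, Myl2, Tnni3 and Nppa, which encode sarcomere proteins and a natriuretic peptide, turned from above to below 0 for CMs minus fibroblasts (-0.10, -0.19, -0.12 and -0.60 on the log2 scale, adjusted p = 0.239, 0.0362, 0.234 and 1.66e-05). Between RVVO and sham 0 regulators and 0 targets were called.

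The genes most like each factor were those with the highest Pearson correlation of mean log2 CPM over the 7 lineages, whose points share libraries and depth. These genes were picked as the highest of all genes with at least 200 UMIs, so values of r near 1 follow in part from the choice. For Tbx5 they were Macrod2os1, Macrod2 and Agpat9 (r = 0.996, 0.995 and 0.995). For Nkx2-5 they were Dld, Xirp1 and Nppb (r = 0.992, 0.988 and 0.987), for Mef2d Nebl (r = 0.99), for Gata4 Immp1l (r = 0.989), for Tbx20 4930579H20Rik (r = 0.986), for Gata6 Zfp949 (r = 0.984), for Hand2 Mroh7 (r = 0.983), and for Mef2c Taldo1 and Sh2b3 (both r = 0.98). For Mef2a they included Lysmd4 (r = 0.969), the gene that overlaps it on the other strand. Among the factors themselves, Nkx2-5 and Mef2d were most alike (r = 0.952), followed by Gata6 and Tbx5 (r = 0.879), and Gata4 and Mef2c were the least alike (r = -0.793).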

How the data were processed

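The authors deposited UMI counts per gene and barcode for each library, whole numbers written by Cell Ranger (5.0.0 in the file headers, 3.0.1 in the submitters' processing notes, which also name STAR, Seurat 3.0.2 and GRCm38) and not normalized. Whether introns and strand were used is not given in the sources. The libraries held 15568, 15430, 8700 and 13392 barcodes and 55516713, 51010039, 64739206 and 63422784 UMIs.

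Barcodes were kept if they had 200 or more genes and less than 10% of UMIs from mitochondrial genes. Scrublet's automatic threshold marked at most 0.0115% of a library, so the highest scores were removed at 0.8% per 1000 barcodes. A nucleus was placed in a lineage where a single marker panel passed a threshold set after the data had been seen. The threshold was a share of UMIs for CMs and a UMI count for the other lineages, which also had to lie under 0.6% for the CM panel. The 5637 nuclei passing 2 or more panels were left out. UMIs were summed per library and lineage and tested with edgeR 4.0.16 in R 4.3.3 (TMM, filterByExpr, quasi-likelihood test, Benjamini-Hochberg adjustment over all genes, threshold 0.05). RVVO was compared with sham within a lineage, and lineages were compared in a single fit with the library as a block. The edgeR test gives no standard error. Each SE shown is the size of the log2 difference divided by the square root of its F statistic. DESeq2 1.42.0, other normalizations, no filter, Leiden clusters (scanpy 1.11.5, resolution 1), thinning, no doublet removal, a replicate block and fits lacking each library in turn were tried. The test was tried on counts simulated with the same dispersion for every gene, where 6.21% of the calls in CMs were false. The factors, gene lists and tests were chosen with earlier results of these data known. Named genes were the 10 factors, list members that were called or highest in a lineage, and the 3 genes most like each factor among genes with at least 200 UMIs. Intervals and limits cover counting error only.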

Additional observations from a re-analysis of the deposited data

Results flagged for a closer look

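Of 63 groups of 4 libraries (9 factors in 6 lineages and macrophages), 5 had a library whose gap to the others exceeded Dixon's 95% critical value, and chance gives about 1 in 20. Gata4 in CMs was 797 CPM in sham 2 and 661 to 683 in the other libraries. Tbx5 in mural cells was 1.57 CPM in sham 1 and 4.84 to 5.21 in the others, from only 2, 8, 5 and 4 UMIs. Tbx20 in endocardium was 62.5 CPM in sham 2 and 33 to 37.8 in the others. Nkx2-5 in epicardium was 6.27 CPM in sham 2 and 9.95 to 10.5 in the others, from only 3, 6, 4 and 11 UMIs. Mef2a in endocardium was 626 CPM in RVVO 1 and 596 to 600.3 in the others, a small gap for its level.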

How the results depend on the processing

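The counts of factors called in either direction kept within 1.5 times their value under every alternative run for the comparisons fixed at the outset, and 0 factors were called between RVVO and sham in each of them. The replicate numbers of the 2 groups share only a number (correlation of deviations from -0.0549 to 0.13 over lineages, 2 pairs), and with a replicate block 0 factors were called in any lineage and no other call changed. The 40 effects of RVVO outside CMs that are not given singly changed sign in 55 of 472 alternative values, with 0 calls.

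Counts in a single direction, added after the data had been seen, moved by more than 1.5 times in these cases. Without TMM factors CMs had 4 factors higher and 3 lower than endocardium (from 7 and 1), while those lower were 2 against vascular endothelium, fibroblasts and mural cells (from 1 each) and 1 against epicardium (from 0). Without the filter on low counts 1 factor was lower in CMs than in macrophages (from 2) and 3 in fibroblasts than in epicardium (from 5). After thinning 0 were lower in endocardium than in epicardium (from 2; 1 without the library block) and 3 in fibroblasts than in epicardium. When each library was left out, 3 to 5 factors were higher in fibroblasts than in macrophages, and those lower were 1 to 2 for CMs and 1 to 2 for vascular endothelium against macrophages, and 1 to 2 for endocardium and 3 to 4 for fibroblasts against epicardium.

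Log2 differences of single factors that changed sign are given here, and the cause was not tested beyond the setting named. Without TMM factors, a setting added after the data had been seen, endocardium minus CMs became 0.22 for Gata6 and 0.097 for Mef2a, vascular endothelium minus CMs 0.50 for Mef2a, mural cells minus CMs 0.18 for Mef2a, fibroblasts minus CMs 0.41 and epicardium minus CMs 0.51 for Mef2c, and endocardium minus macrophages -0.044 for Mef2d and -0.0025 for Tbx20. With RLE normalization Mef2c in epicardium minus CMs was 0.043 and Mef2d in endocardium minus macrophages was -0.00046, and with DESeq2 the former was 0.033. With lineages from clusters, Nkx2-5 in CMs was -0.062 for RVVO minus sham, Mef2c in epicardium minus CMs 0.082, Tbx20 in endocardium minus vascular endothelium 0.76, and mural cells minus macrophages -0.061 for Mef2d and -0.49 for Tbx5. After thinning to 1000 UMIs, Tbx20 in endocardium minus vascular endothelium was 0.50, Hand2 minus macrophages was -0.090 in vascular endothelium, -0.36 in epicardium and -0.17 in mural cells, and Tbx5 in mural cells minus macrophages was -0.26. Without the library block the last was -0.0039, and without doublet removal Nkx2-5 in epicardium minus macrophages was 0.049. Mef2a in vascular endothelium minus CMs, near 0 with TMM factors, was 0.049 with RLE, 0.050 with DESeq2, 0.011 with clusters, 0.042 after thinning, 0.0015 without doublet removal and from -0.10 to 0.046 when each library was left out.

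When each library was left out in turn, RVVO minus sham in CMs ranged from -0.18 to 0.30 for Tbx5, from -0.47 to 0.092 for Mef2c and from -0.30 to 0.40 for Nkx2-5. Mef2c in epicardium minus CMs ranged from -0.25 to 0.18, and Tbx20 in endocardium ranged from -0.38 to 0.00079 against vascular endothelium and from -0.10 to 0.23 against macrophages. Against macrophages, Mef2d in endocardium ranged from -0.016 to 0.10, Tbx5 in mural cells from -0.36 to 0.87, and Nkx2-5 from -0.31 to 0.21 in fibroblasts, from -0.18 to 0.27 in epicardium and from -0.017 to 0.42 in mural cells. Of the remaining alternative values of single factors, 12 gained and 16 lost the threshold and 1460 kept direction and side.

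Sex, mitochondrial share and surgery split the libraries in the same way. With 2 libraries per group and 274734 UMIs in the smallest lineage and library, small changes of sparse factors such as Nkx2-5 were not detectable. Free RNA, unplaced nuclei and the marker thresholds limit the comparison of lineages.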
